A study of Mus musculus with 16 samples.

Results

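The genes described here are the translation initiation and elongation factors on a mouse cDNA array, chosen by name: every probe whose single platform gene symbol starts with Eif1 to Eif6, Eef1 or Eef2, with the kinases, binding proteins and methyltransferases that carry these prefixes. They were 66 of 20355 probes and stood for 44 genes, 30 of them with 1 probe and 14 with several. All 66 probes passed the filter on missing values, so all 44 genes entered the tests. The tested samples were kidneys of 4 male mice labelled MFP2-/-, aged 15 weeks, for which the labels name no background strain. The other channel of every array held RNA pooled from 5 males of the same age labelled wt (Swiss strain SWR/Ola Hsd). MFP2 is a peroxisomal enzyme of fatty acid beta-oxidation and is encoded by Hsd17b4. Each mouse had 4 arrays, a pair in each dye orientation, so there were 16 arrays, and an array held 19737 to 20228 values. Those of an animal were averaged to give 1 value, which leaves n = 4 mice against 1 control sample, and variation between single wild-type animals is not part of any test here. For mouse 1 the title and the source name carry different animal numbers; its arrays were grouped by the mouse ID, which is the same on all 4.

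Translation of an mRNA starts when the small ribosomal subunit, loaded with initiator tRNA by eIF2 and held by the scaffold complex eIF3, is brought to the mRNA cap by the eIF4 factors. It then scans to a start codon, which eIF1, eIF1A and eIF5 help to select, while eIF2B recharges eIF2 with GTP. In elongation, eEF1A delivers aminoacyl-tRNA to the ribosome, the eEF1B subunits recharge eEF1A, and eEF2 moves the ribosome along the mRNA. Many of the mRNAs for ribosomal proteins and elongation factors begin with a run of pyrimidines (a 5′ terminal oligopyrimidine tract), through which mTORC1 and LARP1 control how well they are translated. The kidney tubule has a high demand for transporters and endocytic receptors, and protein synthesis there is controlled through both eIF2 and mTORC1.

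Values are log2 ratios of mutant over pool, centred on the median of each array, so 0 means that a gene stood where the median spot stood. Neither the direction nor the log base is given in the sources used here. Both were inferred from the values, and every sign below rests on that inference, whose basis is not shown here. The other possible reading, Cy5 over Cy3 on every array, turns the sign of the arrays with the mutant in Cy3, and its values stand beside those of the main groups. The targeted gene did not settle it: of both Hsd17b4 probes, one read 0.018, 0.83, 0.34 and 0.52 in mice 1 to 4 and the other read -1.69, -1.5, -0.10 and -0.34. Their mean was -0.24 ± 0.45 (SD, n = 4; adjusted p = 0.655 by limma), so the animals are called by their label throughout. Of the 10 tubule markers listed to check the tissue, 7 were measured, and no intensities were used here to show their level.

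No translation factor passed the test against the pool, and neither did any other row: 0 of 44 genes and 0 of 16140 rows (0%) had a limma p under 0.05 after Benjamini-Hochberg adjustment over all rows. The smallest adjusted p was 0.548 among the translation factors and 0.327 over all rows. As a set, though not gene by gene, the translation factors leaned slightly to positive values. With the mutant in Cy3 their median did not stand above that of all rows. Their median log2 ratio was 0.07 over 44 genes, against 0.00041 over all rows, and 32 of 44 (72.7%) were positive, against 50.1% of all rows. All rows include probes without a symbol. Over the 9846 named genes the median was 0.012 and 54.1% were positive. Read as Cy5 over Cy3, 30 of the translation factors were positive and their median was 0.068. The means ran from -0.36 for Eif1a to 0.57 for Eif4a3.

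Before adjustment, 6 of the 44 genes had a p under 0.05 with a positive mean, where 5.83% of all rows did, and 0 had one with a negative mean, where 3.21% of all rows did. Positive values in all 4 mice were seen for 13 genes, against a background of 10% of rows, and negative values in all 4 mice for 1 gene, against 9.41%. Of the 9846 named genes, 634 had such a p with a positive mean and 242 with a negative one. Of the 9680 named genes measured in every mouse, 1124 were positive in all 4 and 774 negative in all 4. The count of 6 was 2 when mouse 2 was left out, 2 when mouse 4 was left out, 2 with no centring, 3 with extreme values kept and 12 with all arrays and the mouse as a random block. The share of all rows past that threshold with a positive mean was then 3.99%, 3.47%, 4.67%, 5.05% and 8.59%. Without mouse 1 or mouse 3 the count was 6 or 7, where the share of all rows was 5.57% or 4.73%. Without mouse 1 there was also 1 gene with such a p and a negative mean. The plot of all genes by mouse gives the value of each animal.

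**Figure D1:**
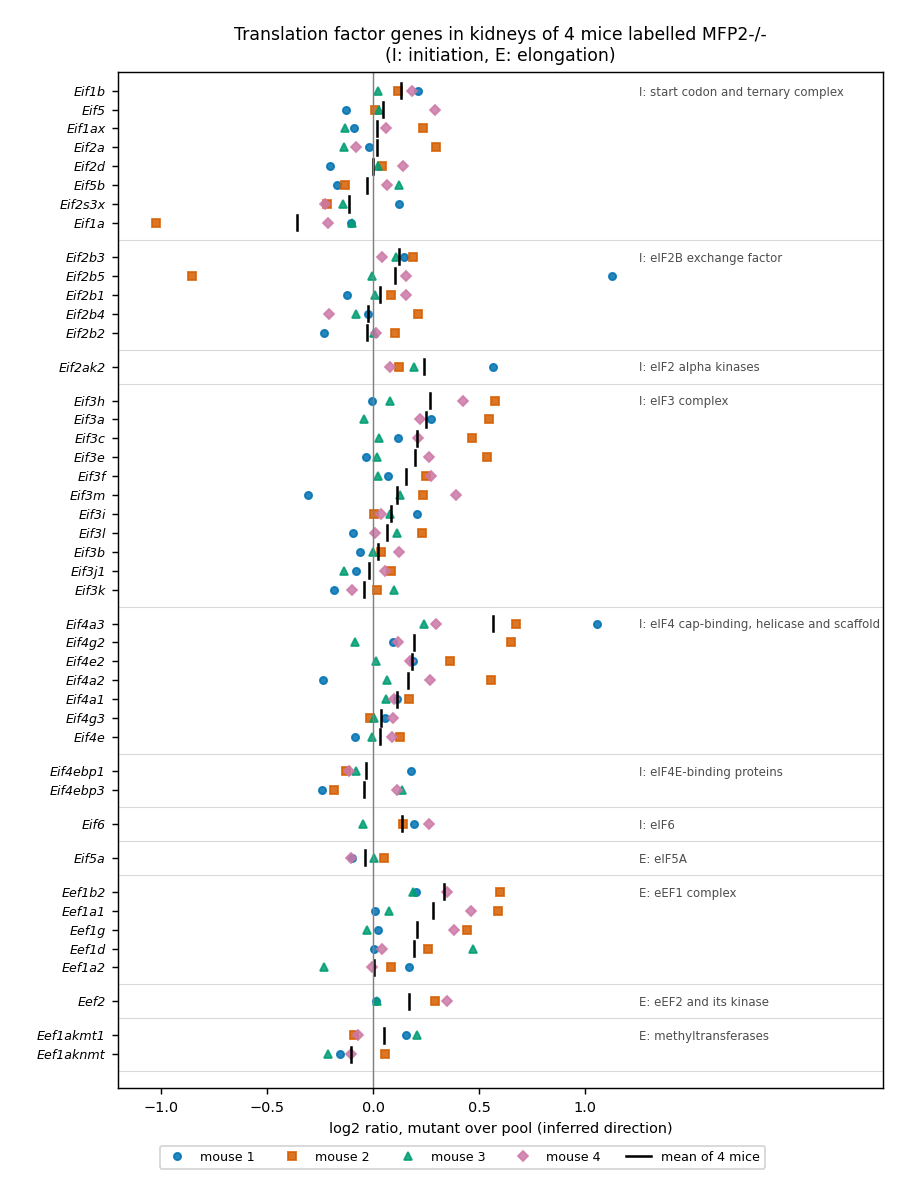
Log2 ratio of mutant over pool (x axis, inferred direction) for the 44 genes (rows, grouped by role), with 1 symbol per mouse and a black bar for the mean of 4 mice. The means run from -0.36 for Eif1a to 0.57 for Eif4a3, and mouse 2 holds the highest value of 21 genes.

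The eEF1 complex, which delivers aminoacyl-tRNA during elongation, had a median of 0.20 over 5 genes, all with a positive mean. Read as Cy5 over Cy3, the median was 0.068 and 3 of the 5 were positive. Read as mutant over pool, its median by mouse was 0.022, 0.44, 0.076 and 0.35 in mice 1 to 4. Eef1b2, the nucleotide exchange subunit eEF1B alpha, read 0.20, 0.60, 0.19 and 0.35, which makes a mean of 0.33 ± 0.19 (SD, n = 4; unadjusted p = 0.0085, adjusted p = 0.548 by limma). All 4 mice were above 0 and mouse 2 was the highest. Eef1b2 was also positive in both dye orientations, with means of 0.40 where the mutant was in Cy5 and 0.27 where it was in Cy3. When all arrays were fitted with the mouse as a random block, Eef1b2 passed the threshold with an adjusted p of 0.0432, the only translation factor among the 221 rows that did so. The consensus correlation within mice was 0.0355, so that fit treated the arrays of a mouse as nearly independent, unlike the main test.

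Eef1a1, the main form of the GTPase that brings aminoacyl-tRNA to the ribosome, read 0.0081, 0.59, 0.076 and 0.46 in mice 1 to 4 (mean 0.28 ± 0.28, SD, n = 4; unadjusted p = 0.049, adjusted p = 0.548 by limma). Mice 2 and 4 were high, while mice 1 and 3 were close to 0. Eef1a1 averaged 0.49 with the mutant in Cy5 and 0.075 with the mutant in Cy3, and the orientation term had an adjusted p of 0.032 by limma. Its probes differed in size and not in order: one averaged 0.47 ± 0.38 and the other 0.10 ± 0.19, and both were highest in mouse 2. The paralog Eef1a2, which in adult mice is known for muscle and neurons, read 0.17, 0.083, -0.23 and -0.0044 (mean 0.0040 ± 0.17), with no shared direction. Eef1a1 and Eef1a2 are close in sequence, so cDNA probes could detect both, which was not tested.

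The remaining eEF1B subunits were less uniform. Eef1g, the gamma subunit, read 0.022, 0.44, -0.026 and 0.38 (mean 0.20 ± 0.24; adjusted p = 0.582 by limma), again with mice 2 and 4 high. It averaged -0.14 with the mutant in Cy5 and 0.55 with the mutant in Cy3, so its sign depended on the dye. Eef1d, the delta subunit, read 0.0041, 0.26, 0.47 and 0.040, and its high value in mouse 3 came from 1 of 3 probes, which read 1.49 there while the others read 0.021 and -0.11.

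Eef2, the translocase, read 0.015, 0.29, 0.016 and 0.35 (mean 0.17 ± 0.18, SD, n = 4; adjusted p = 0.582 by limma) and averaged 0.18 and 0.15 with the mutant in Cy5 and in Cy3. Its 4 probes averaged 0.32, 0.074, 0.28 and -0.00019. The probe at 0.28 read 0.80 in mouse 4, where an array with the mutant in Cy3 read 2.53. In contrast, Eif5a, which helps the ribosome through difficult stretches such as proline runs, averaged -0.037 ± 0.077, and its probes had opposite signs (-0.23 ± 0.11 and 0.15 ± 0.12). The lysine methyltransferases of eEF1A were Eef1akmt1 at 0.051 ± 0.15 and Eef1aknmt at -0.11 ± 0.12, both within the spread between mice.

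The start-site sequences of these genes are shown because the elongation factors are the textbook case of the oligopyrimidine tract. They are the 30 bases around the run, or, where none was found, around the annotated start, on the transcript strand, from RefSeq on GRCm38.p6; capitals mark a run of at least 8 bases of C and T that begins with C. The first 6 hold a run and the last 3 do not. In the order shown, the runs begin at -5, 17, -4, 31, -20 and -1 bases from the annotated start, where minus means before it. Some of these runs therefore lie away from the annotated start.
Eef1a1, chr9:78481710-78481739, minus strand: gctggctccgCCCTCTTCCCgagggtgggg
Eef1a2, chr2:181156979-181157008, minus strand: ctcactggttCTCTCCCTCgctccggtgca
Eif3f, chr7:108934404-108934433, plus strand: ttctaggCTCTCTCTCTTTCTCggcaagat
Eif3a, chr19:60790644-60790673, minus strand: atcacgtggttCCTTCCTTTCCgtctctgg
Eif3m, chr2:105017027-105017056, minus strand: acggcaccgCTCTCTTTTCCggtcggcgtg
Eif2s3x, chrX:94212632-94212661, minus strand: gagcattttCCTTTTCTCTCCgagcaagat
Eef1b2, chr1:63176821-63176850, plus strand: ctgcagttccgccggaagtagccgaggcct
Eif4a2, chr16:23107458-23107487, plus strand: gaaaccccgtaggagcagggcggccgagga
Eef2, chr10:81176621-81176650, plus strand: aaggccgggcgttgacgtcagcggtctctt

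Runs were searched from 20 bases before to 49 bases after each annotated start. A run was found in 12 of the 32 translation factors in the table (37.5%), in 37 of 48 ribosomal protein genes (77.08%) and in 5920 of all 27025 genes (21.91%). On the other strand the shares were 18.75%, 8.333% and 25.19%. The 12 genes with a run had a median log2 ratio of 0.048 with 8 positive, and the 20 without one had 0.042 with 15 positive. In mice 1 to 4 the medians were -0.038, 0.12, 0.0042 and 0.050 with a run and -0.021, 0.15, 0.018 and 0.13 without. Both sets were highest in mouse 2, and the highest value lay in mouse 2 for 6 of the 12 and 10 of the 20 genes. A match describes only these letters in this window. The search did not settle which mRNAs begin with a tract, since runs away from the annotated start counted and runs under 8 bases did not. Genes without a run, Eef2 and Eef1b2 among them, may therefore still have one, and the sets with and without a run do not compare genes by it.

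In the initiation factors, the 11 measured genes of eIF3 had a median log2 ratio of 0.11, and 9 were above 0; read as Cy5 over Cy3, the median was 0.0064 and 7 were above 0. Read as mutant over pool, the mouse medians were -0.034, 0.23, 0.030 and 0.21, so mice 2 and 4 were again above mice 1 and 3. Eif3h, which carries one of the MPN domains of the complex, read -0.0047, 0.57, 0.079 and 0.42 (mean 0.27 ± 0.27, SD, n = 4; unadjusted p = 0.0542, adjusted p = 0.552 by limma). It averaged 0.27 with the mutant in Cy5 and 0.26 with the mutant in Cy3. Eif3e, a subunit with a PCI domain, read -0.034, 0.54, 0.018 and 0.26, and averaged 0.20 and 0.19 in the Cy5 and Cy3 orientations.

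Eif3a, the largest subunit of eIF3, read 0.27, 0.55, -0.043 and 0.22 (mean 0.25 ± 0.24; unadjusted p = 0.0494, adjusted p = 0.548 by limma). Mouse 3 was the only one below 0. The fit used 1 probe with all 16 values, which averaged 0.23 ± 0.33, and 1 with 14 values, which averaged 0.27 ± 0.31 and stood at -0.57 and 1.12 in the Cy5 and Cy3 orientations. One value of that second probe was extreme and was set to missing; with it kept, the mean of Eif3a was 0.77. Eif3c read 0.12, 0.47, 0.030 and 0.21, positive in every mouse. Lowest in the complex was Eif3k, at -0.043 ± 0.12, whose probes had opposite signs. The other eIF3 genes (Eif3b, Eif3f, Eif3i, Eif3j1, Eif3l and Eif3m) averaged -0.020 to 0.15.

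All 7 genes of the eIF4 cap-binding, helicase and scaffold group had a positive mean, with a median of 0.16; read as Cy5 over Cy3, 4 of the 7 were positive and the median was 0.023. Eif4a3, an RNA helicase best known as the core of the exon junction complex, read 1.05, 0.67, 0.24 and 0.30 (mean 0.57 ± 0.38, SD, n = 4; unadjusted p = 0.00819, adjusted p = 0.548 by limma). Every mouse was above 0. Its value in mouse 1 came from arrays that read -0.56 and 0.23 with the mutant in Cy5, and 3.04 and 1.5 with the mutant in Cy3. Eif4e2, a cap-binding homolog of eIF4E that represses translation, read 0.19, 0.36, 0.015 and 0.17 (mean 0.18 ± 0.14; unadjusted p = 0.046, adjusted p = 0.548 by limma), positive in every mouse and lowest in mouse 3.

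The helicase paralogs of the cap complex are shown side by side. Eif4a1 read 0.11, 0.17, 0.061 and 0.10 (mean 0.11 ± 0.046), a narrow range, whereas Eif4a2 read -0.24, 0.56, 0.064 and 0.27 (mean 0.16 ± 0.33). The difference between these paralogs was not tested. Eif4g2, which lacks the eIF4E-binding part of the scaffold and acts in cap-independent initiation, read 0.095, 0.65, -0.084 and 0.12, with mouse 2 apart from the rest. Eif4e, the cap-binding protein itself, averaged 0.032 ± 0.095 over 4 probes that ran from -0.049 to 0.10, and Eif4g3 averaged 0.036 ± 0.050 over 5 probes that ran from -0.10 to 0.20. Among the inhibitors of eIF4E, Eif4ebp1 averaged -0.036 ± 0.14 and Eif4ebp3 -0.044 ± 0.19.

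The factors of start codon choice and the ternary complex had a median of 0.0079 over 8 genes, 4 of them positive. Read as Cy5 over Cy3, the median was 0.097 and all 8 were positive. Eif1b was positive in every mouse (0.21, 0.12, 0.022 and 0.18; mean 0.13 ± 0.084, adjusted p = 0.572 by limma). Eif1a, a scanning factor gene on chromosome 18, was negative in every mouse (-0.10, -1.02, -0.10 and -0.21; mean -0.36 ± 0.44, adjusted p = 0.574 by limma). Its low value in mouse 2 came from 1 array, at -3.84, while the other 3 read -0.24, -0.20 and 0.19. Eif2s3x, the X-linked gamma subunit of eIF2, averaged -0.12 ± 0.16, and Eif5, the GTPase activator of eIF2, 0.049 ± 0.18 over probes of opposite sign.

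For eIF2B, the exchange factor whose inhibition by phosphorylated eIF2 starts the integrated stress response, the median was 0.031 over 5 genes, and 0.089 if read as Cy5 over Cy3. Eif2b3 was highest (0.12 ± 0.062) and Eif2b2 lowest (-0.028 ± 0.14). Eif2b5, with 12 of 16 values, ranged from -0.85 in mouse 2 to 1.13 in mouse 1. The single measured eIF2 kinase was Eif2ak2, the double-stranded RNA sensor PKR, which read 0.56, 0.12, 0.19 and 0.080 (mean 0.24 ± 0.22; unadjusted p = 0.0464, adjusted p = 0.548 by limma). Its probes disagreed: one averaged 0.56 ± 0.66 with 1.52 in mouse 1, and the other -0.086 ± 0.26. With the mutant in Cy5 Eif2ak2 averaged -0.24, and with the mutant in Cy3 0.71. Eif6, which keeps the large ribosomal subunit from joining too early, averaged 0.14 ± 0.13, with its probes at 0.14 ± 0.17 and 0.14 ± 0.11.

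**Figure D2:**
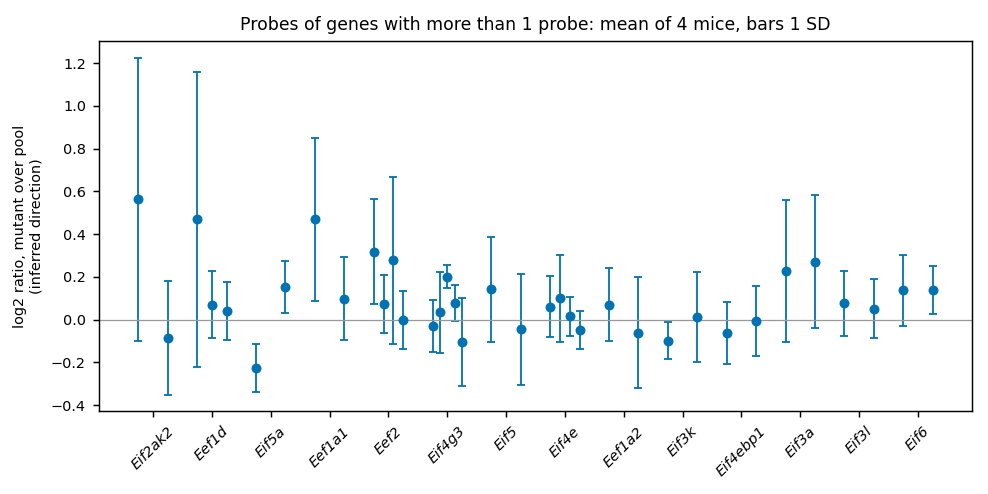
Mean log2 ratio of mutant over pool (y axis, inferred direction) of each probe of the 14 genes with more than 1 probe; bars are 1 SD over 4 mice. The probes of Eif2ak2 stand at 0.56 and -0.086, and those of Eif6 at 0.14 both.

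Dye orientation mattered for several of these genes. The limma term for orientation passed an adjusted p of 0.05 in 5 of 44 genes, where 8.4% of all rows did; they were Eif2b2, Eif3a, Eif3m, Eef1a1 and Eef1g. With the mutant in Cy5 the median of the 44 genes was 0.093, against -0.020 over all rows, and 31 were positive. With the mutant in Cy3 the median of the 44 genes was 0.020, against 0.027 over all rows, and 23 were positive. The lean above all rows was thus seen in the Cy5 orientation and not in the Cy3 orientation. The sign was the same in both orientations for 16 of the 44 genes, and for 6491 of all 16140 rows. Among the 6 genes with an unadjusted p under 0.05, Eif3a and Eif2ak2 changed sign between orientations and Eif4a3, Eif4e2, Eef1b2 and Eef1a1 did not. If the deposited values instead ran Cy5 over Cy3, 5 genes had an unadjusted p under 0.05 with a positive mean, and 6 with a negative one. In that reading 3256 of all 16140 rows had such a p, and 6.65% of all rows had it with a positive mean.

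**Figure D3:**
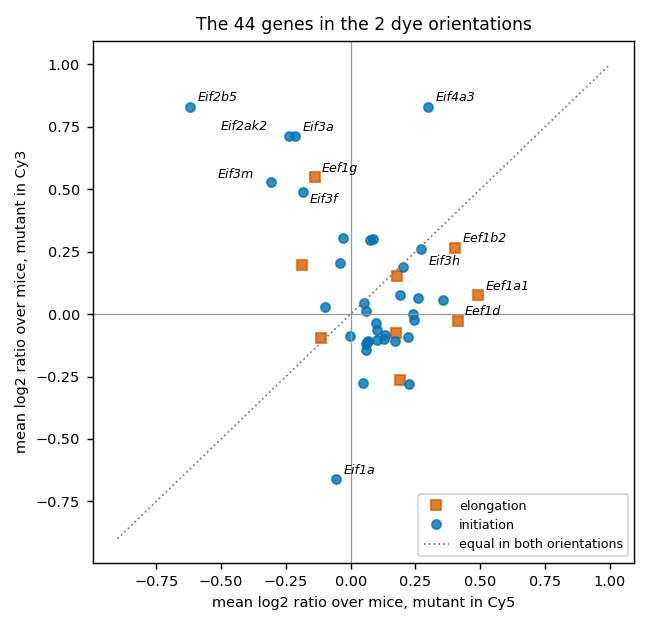
Mean log2 ratio over 4 mice with the mutant in Cy5 (x axis) and in Cy3 (y axis) for the 44 genes; squares are elongation genes, circles initiation genes, and the dotted line marks equal values. Eif3h lies on the line at 0.27 and 0.26, while Eif2ak2 (-0.24 and 0.71) and Eif3a (-0.21 and 0.71) lie above it at the left.

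Each mouse was then described on its own. Over the 44 genes the median was 0.0061, 0.13, 0.017 and 0.10 in mice 1 to 4, while the medians over all rows lay between -0.0086 and 0.0065. Mouse 2 held the highest value of 21 genes (47.7%), where it did so for 31.0% of all rows and 33.9% of named genes. Mice 4, 1 and 3 held the highest value of 9, 8 and 6 of the translation factors. In limma's F-test between mice on all 16 arrays, which sets the mice against the spread between arrays, 0 of 44 genes passed an adjusted p of 0.05, where 0.189% of rows did. At an unadjusted p under 0.05 there were 5 genes, where 11.2% of rows were past it, so the share of translation factors was close to the background.

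Those with the smallest p between mice were Eif4a2, Eif3h, Eef1a1, Eif4g2, Eif3e and Eef1g. For Eif4a2 the F-test gave an unadjusted p of 0.000743 and an adjusted p of 0.0954. All 4 arrays of mouse 2 lay between 0.33 and 0.74, above all 4 of mouse 1, which lay between -0.46 and 0.039. For Eif3h (unadjusted p = 0.000894, adjusted p = 0.1003 by limma's F-test) all arrays of mouse 2 were between 0.30 and 0.69 and those of mouse 4 between 0.32 and 0.53. Mouse 1 lay between -0.15 and 0.20 and mouse 3 between -0.064 and 0.21, so for Eif3h the arrays of mice 2 and 4 did not overlap those of mice 1 and 3. These genes were picked by the F-test on the same arrays, so such a separation is no further evidence. How many of all rows show one was not counted.

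Eef1a1 had an adjusted p of 0.161 between mice, with the arrays of mouse 2 between 0.45 and 0.69 and those of mouse 1 between -0.14 and 0.21. Eif4g2 (adjusted p = 0.237), Eif3e (0.307) and Eef1g (0.454 by the same F-test) were highest in mouse 2 as well. On rows with a value on every array 1 translation factor passed, Eif3a with the probe that had all 16 values, at an adjusted p of 0.0474 by the F-test; that probe read -0.065, 0.66, -0.0045 and 0.32 in mice 1 to 4.

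**Figure D4:**
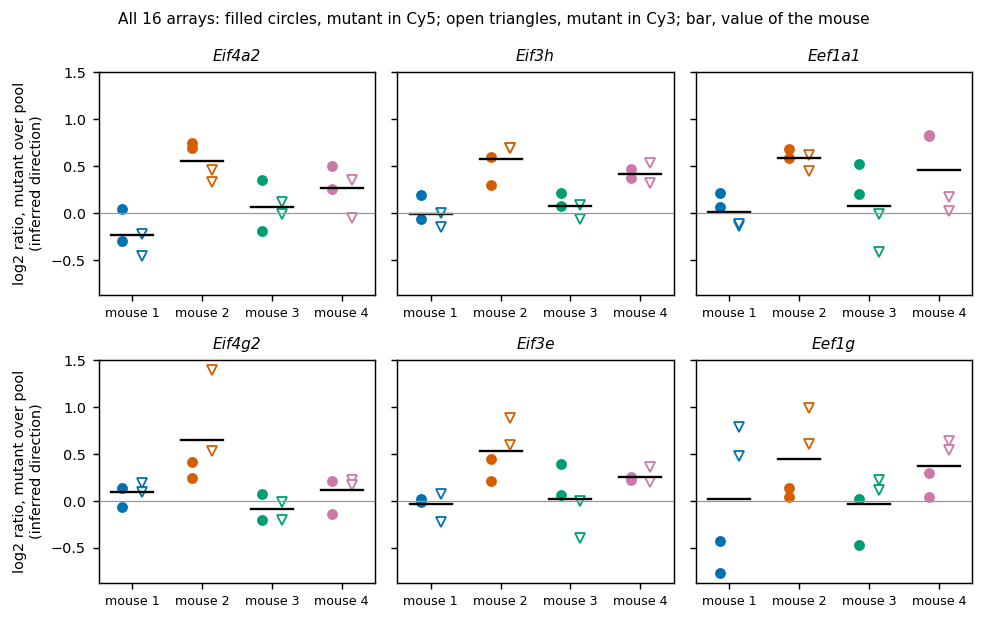
Log2 ratio of mutant over pool (y axis, inferred direction) on each of the 16 arrays for the 6 translation factors ranked first between mice by p; filled circles have the mutant in Cy5, open triangles in Cy3, and bars are the value of the mouse. The arrays of mouse 2 for Eif3h lie between 0.30 and 0.69 and those of mouse 1 between -0.15 and 0.20.

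Cytosolic ribosomal proteins were also highest in mouse 2 and next in mouse 4, by their medians. Their overall median over 57 genes was 0.20, with 54 positive and 22 with an unadjusted p under 0.05 and a positive mean. In mice 1 to 4 it was 0.067, 0.43, 0.063 and 0.24, and 42 of the 57 genes (73.7%) were highest in mouse 2. None of the 57 passed either test after adjustment, and 24 had an unadjusted p under 0.05 between mice. The difference between translation factors and ribosomal proteins was not tested.

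**Figure D5:**
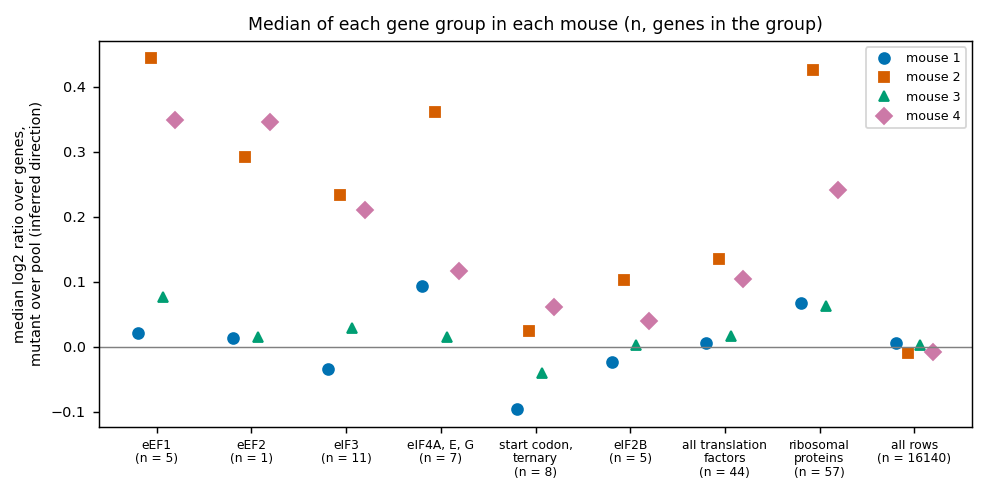
Median log2 ratio of mutant over pool (y axis, inferred direction) of each gene group in each of 4 mice, with the number of genes under each group; all 16140 rows stand at the right. The eEF1 complex reads 0.44 in mouse 2 and 0.022 in mouse 1, and all rows lie between -0.0086 and 0.0065.

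Kidney tubule markers were likewise highest in mouse 2 and next in mouse 4, by their medians. The overall median of the 7 measured of 10 was 0.24, with 5 positive, and by mouse it was 0.096, 0.35, 0.10 and 0.25; 5 of the 7 were highest in mouse 2. Before adjustment 4 of them had a p under 0.05 with a positive mean and 1 with a negative mean, and none passed after it (adjusted p 0.548 or higher by limma). Endothelial markers had a median of 0.14 over 5 genes and skeletal muscle markers 0.11 over 4. Adipose, adrenal cortex, leukocyte, fibroblast and erythroid markers had 0.022, 0.011, -0.037, -0.14 and -0.21 over 4, 3, 4, 5 and 2 genes. The adrenal cortex median hid differences by mouse: it was 0.20, -0.17, 0.46 and -0.16 in mice 1 to 4, so mice 1 and 3 were higher. Among these markers Star differed between mice (adjusted p = 0.00916 by limma's F-test), at 0.20, -0.75, 0.64 and -0.042. Star averaged -0.33 with the mutant in Cy5 and 0.35 with the mutant in Cy3. The part of cell makeup in the values of the translation factors was not tested, and in bulk kidney RNA fewer cells of a type and less RNA per cell cannot be told apart.

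The pathways next to the translation factors were read from lists of their genes. Downstream of eIF2 phosphorylation, 11 of 12 listed genes of the integrated stress response were measured, with a median of 0.0080. Atf4, the transcription factor that is translated when eIF2 is phosphorylated, read -0.032, -0.16, -0.25 and -0.18 (mean -0.16 ± 0.093; unadjusted p = 0.0455, adjusted p = 0.548 by limma), below 0 in every mouse. It was the 1 gene of that list with an unadjusted p under 0.05. Of the mTORC1 pathway and the kinases of eIF4E, 12 of 15 genes were measured, with a median of -0.012 and 0 with an unadjusted p under 0.05 against the pool. Pdcd4, an inhibitor of eIF4A, averaged 0.10 ± 0.13, and Rheb, the GTPase that activates mTORC1, -0.11 ± 0.16.

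Mtor itself, named after its values were seen, was the 1 gene of that list to pass between mice (adjusted p = 0.00916 by limma's F-test). It read -0.84 in mouse 1 and 0.46, 0.32 and 0.29 in mice 2, 3 and 4. Mtor averaged 0.27 with the mutant in Cy5 and -0.16 with the mutant in Cy3 (adjusted p of the orientation term 0.0418 by limma).

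Termination, recycling and mRNA-partner genes (13 of 18 measured) had a median of 0.063. Gigyf1, a partner of eIF4E2, read -0.35, -0.32, -0.26 and -0.36 (mean -0.32 ± 0.046, SD, n = 4; unadjusted p = 0.00125, adjusted p = 0.548 by limma). All 4 mice were below 0, within a narrow range. Paip2, which keeps poly(A)-binding protein from the mRNA, averaged 0.23 ± 0.19 (unadjusted p = 0.0388, adjusted p = 0.548 by limma), with 0.51 for the mutant in Cy5 and -0.042 for the mutant in Cy3 (adjusted p of the orientation term 0.0296). Of the enzymes that modify eIF5A and eEF2, 3 of 8 were measured. Dohh, which completes the hypusine of eIF5A, read -0.17, -0.17, -0.24 and -0.23 (mean -0.20 ± 0.038; unadjusted p = 0.0107, adjusted p = 0.548 by limma). Dohh averaged -0.045 with the mutant in Cy5 and -0.36 with the mutant in Cy3 (adjusted p of the orientation term 0.0454 by limma).

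Selenoprotein synthesis had 4 of 4 genes measured, with a median of 0.064. Sephs2, which makes the selenium donor, read 0.14, 0.26, 0.40 and 0.23 (mean 0.26 ± 0.11; unadjusted p = 0.00848, adjusted p = 0.548 by limma), positive in every mouse. The 7 mitochondrial translation factors measured of 10 had a median of 0.080 and the 19 aminoacyl-tRNA synthetase genes measured of 23 had -0.0043, and neither list held a gene with an unadjusted p under 0.05. In the first, Gfm1 and Mtrf1l averaged 0.20 ± 0.22 and 0.19 ± 0.21, and Gfm1 changed sign between the Cy5 and Cy3 orientations (-0.22 and 0.62; adjusted p of that term 0.0205 by limma). In the second, Qars averaged 0.18 ± 0.16 and Kars -0.19 ± 0.19.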

How the data were processed

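Kidney RNA of 4 mutant males, each against 1 wild-type pool, was labelled with Cy3 and Cy5 in both orientations, per the labels' protocols. The deposited values are the authors' log2 ratios, 1 per probe and array; their normalization, like the log base and the direction, is not stated in the sources used here. Intensities were not used, signal over background is therefore unknown, and the number of arrays limits the precision. Column medians ran from -0.149 to 0.098. No pair of arrays held the same values: the most alike shared 0.19% of them.

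Values with an absolute size over 10 were set to missing and arrays were centred on their medians. Arrays were averaged within each orientation and then over both. Probes measured in both orientations in 3 or more mice were kept (20187 of 20355). Of all probes, 14030 had 1 symbol, 5 several and 6320 none. Of those with 1 symbol, 13994 were matched to a RefSeq table of GRCm38.p6 and took its symbol, whether or not it differed. Probes of 1 symbol were averaged (16140 rows, 9846 of them named genes). Each row's 4 mouse values were tested against 0 (limma 3.58.1 in R 4.3.3, two-sided, Benjamini-Hochberg over all rows); the pool's own variation does not enter. Mice were compared by limma's F-test with a dye term on 15856 rows. Scripts were tested on simulated data.

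The genes, lists and named-gene rule were chosen with earlier results of these data known. That rule named genes with an unadjusted p under 0.05, the 6 with the smallest p between mice, the highest and lowest of each role, genes whose probes differed in sign or by over 0.5, paralog pairs, Hsd17b4, and in each pathway list those with an unadjusted p under 0.05 or else the 2 with the smallest p. Alternatives covered centring, scaling, filters, extremes, single probes, orientations and repeats, medians, the mouse as a random block (statmod 1.5.0), the reading as Cy5 over Cy3 and leaving out each mouse.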

Additional observations from a re-analysis of the deposited data

Results flagged for a closer look

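In 2 of the 44 translation factors 1 mouse stood apart from the other 3 by Dixon's ratio of its gap to the whole range (the highest or lowest mouse was past the critical value for 4 samples); chance flags about 1 in 20 groups, and no explanation was weighed. Eif1a read -1.02 in mouse 2 (ratio 0.879), where 1 of its 4 arrays read -3.84. Eif4ebp1, the repressor of eIF4E that mTORC1 switches off, read 0.18 in mouse 1 (ratio 0.847), and the other mice read -0.13, -0.080 and -0.11.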

How the results depend on the processing

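The median of the translation factors was positive under all 18 alternatives, from 0.020 with the mutant in Cy3 only to 0.097 with first repeats only. The medians over all rows were then 0.027 and 0.0036, so with the mutant in Cy3 only the translation factors did not stand above all rows. Rows past an adjusted p of 0.05 against the pool, 0 as reported, were 221 with the mouse as a random block (consensus correlation 0.0355), 12 when read as Cy5 over Cy3, 3 with the mutant in Cy5 only and 1 with the mutant in Cy3 only; 1 translation factor was among the first and 0 among the rest. Between mice the 30 rows became 46 when centring used the probes (1 in 3) that varied least between repeats, 16 when scaled to a common spread, 48 for single probes, 51 on rows with values on all arrays (1 translation factor among them), 2 when read as Cy5 over Cy3, and 5 to 13 when 1 mouse was left out (5, 12, 7 and 13 without mice 1, 2, 3 and 4). The causes were not tested, and leaving out a mouse changed both the number of mice and which mice were compared. Of 521 alternative values of the 29 named translation factors, 41 moved by more than 1 SD over mice, 49 had the other sign and 1 passed the threshold; 14 of those with the other sign came from the reading as Cy5 over Cy3. Without intensities, dim spots could not be told from bright ones.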
